A study of Sparus aurata with 8 samples.

Results

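The transcripts described here are those whose signal differed at least 4-fold between 2 pools of gut RNA from gilthead sea bream (Sparus aurata) on the same diet. They are 121 of the 15156 sequence names on the array. This farmed marine fish received either a control feed or one that held SDPP, spray-dried plasma from pigs, which is used as a source of protein in animal feeds. Signal is given throughout as log2 processed signal relative to the 75th percentile of the array, so a difference of 1 is 2-fold. The members were chosen by these signals. A transcript was kept if 1 probe was well above background on all 8 arrays, if SDPP pools 3 and 4 differed by at least 2 on this scale, and if the ranges of the 4 SDPP and the 4 control values overlapped. Of the 121, 7 were higher in SDPP pool 4 than in pool 3 and 114 were lower.

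Juveniles of 10.6 g were kept in 4 tanks per diet, with 50 fish per tank, for 95 days. Those on the control diet weighed 82.7 ± 3.2 g and those on the SDPP diet 88.2 ± 1.6 g at the end, per the labels. RNA was extracted from individual fish and was hybridised as 4 pools per diet. The labels give neither the number of fish behind a pool nor the link from pools to tanks, so the spread behind any p-value is that between these pools and may be technical. The sample titles speak of gut, and the series text of the anterior intestine, but skin is given as the tissue and in the extraction protocol. No sequence name matched any of the 32006 sea bream genes in the RefSeq table, so no transcript has a gene name here, the tissue could not be checked against markers, and no pathway list could be applied.

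The anterior intestine of fish digests and absorbs nutrients through a layer of enterocytes, and it holds mucus-secreting goblet cells, smooth muscle and resident immune cells. A piece of gut also carries blood and, in many bony fish, may carry pancreatic tissue that lies scattered around the gut. In RNA from whole tissue, fewer cells of a type and less RNA per cell cannot be told apart.

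The array measured 45220 spots, and 15488 to 30641 of the non-control spots were well above background on an array. No spot was saturated. The 8 arrays lay on 6 slides. SDPP pool 3 shared a slide with control pool 1, and SDPP pool 4 shared another with control pool 2. The extraction software accepted the spot grid of SDPP pool 4 and of control pools 2, 3 and 4, and did not accept that of SDPP pools 1, 2 and 3 and control pool 1.

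Of 5022 transcripts well above background on all 8 arrays, pool 4 was at least 4-fold above pool 3 in 10 (0.199%) and at least 4-fold below it in 139 (2.77%). The ranges of the diets were apart in 1554 of the 5022 (30.9%), in 3 of the 10 and in 25 of the 139, which left the 7 and the 114. The members just inside the limit had differences of 2.003 and -2.003, and the transcripts just outside it 1.95 and -1.99. Both counts rest on detection in the lower pool. Among transcripts well above background in the higher pool of the pair and at least 4-fold apart, 75 were higher in pool 4 and 403 lower, of which 12 and 182 were also well above background in the lower pool. The lowest signal well above background was -1.68 in pool 3 and -2.96 in pool 4, so a transcript could be measured further down in pool 4. The split also depended on scaling. With the arrays scaled to spike-in RNA, 49 transcripts were higher in pool 4 and 61 lower, and with median centring 12 and 98. Spike-in probes averaged 15.3 in pool 3 and 14.6 in pool 4 as log2 signal before scaling. The values of pools 3 and 4 and the overlap of the diets chose the members, so they are a description and were not tested.

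The 114 transcripts lower in SDPP pool 4 had one shape in common. Their median signal was 1.46 in SDPP pool 3, 0.86 in pool 1, 0.29 in pool 2 and -1.40 in pool 4, and it was 0.90, 1.14, 1.04 and 1.04 in control pools 1 to 4. SDPP pool 3 thus lay above the controls and pool 4 far below them. The difference between pools 4 and 3 ran from -5.17 to -2.003 with a median of -2.59, which is 6.002-fold, against a median of 0.17 over all 5022 transcripts. It was at least 3 in size in 37 of the 114 and at least 4 in 8.

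Pools 1 and 2 were no part of the limit between pools 3 and 4. In 109 of the 114 (95.6%) the 4 SDPP pools stood in the order 3, 1, 2, 4 from high to low, a share to be read against transcripts of the same direction, since the rule fixed pool 4 below pool 3. Of 549 others that were well above background on all arrays and differed between these pools by at least 1, 359 were lower in pool 4, and 89.7% of the 359 stood in that order. The order was thus common to transcripts lower in pool 4 by at least 1 and is not particular to the 114. Among all 1915 transcripts well above background on all arrays and lower in pool 4 by any amount, it held in 51.6%. Pool 4 was the lowest of all 8 pools in 109 of the 114 and in 89.1% of the 359, and pool 3 the highest in 82 (71.9%) and in 43.5%, both pools being those the rule used. Pool 2 was below all 4 control pools in 99 of the 114 (86.8%), against 74.4% of the 359. Pool 1 was within the control range in 46 (40.4%) and below it in 51 (44.7%), against 31.5% and 50.4% of the 359. The rule asked for an overlap of the diets in the 114 and not in the 359. It thus bears on where pools 1 and 2 stood against the controls, and nothing is read from those shares. The other 5 of the 114 had pools 1 and 2 in reverse order or pool 2 outside the span of pools 3 and 4, and in one of them pool 2 stood at -0.08, above pool 3 at -0.65. These counts are relative to the scaling used, under which pool 4 was above pool 3 by a median of 0.17 over all transcripts.

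**Figure D1:**
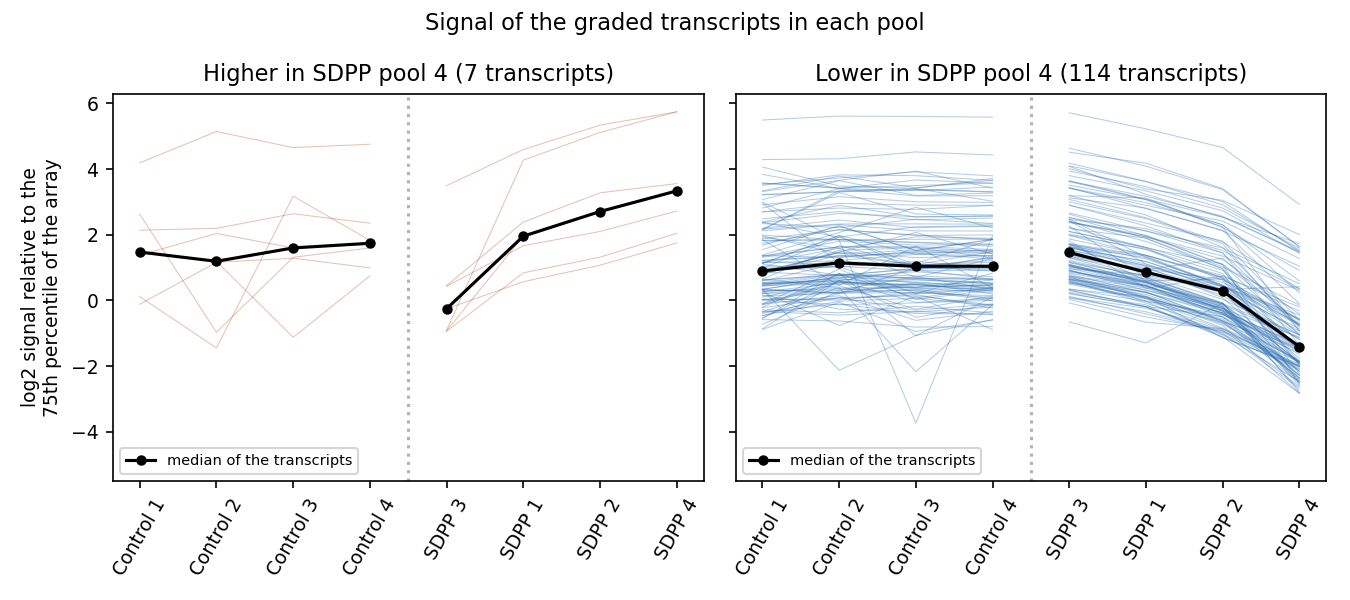
Log2 signal relative to the 75th percentile of the array (vertical axis) in each of the 8 pools, with 1 thin line per transcript and the median in black, for the 7 transcripts higher and the 114 lower in SDPP pool 4. SDPP pools are drawn in the order 3, 1, 2, 4; the median of the 114 goes from 1.46 to -1.40 across them and stays between 0.90 and 1.14 on the control diet.

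The largest difference among the 114 was that of Contig3138, whose function is not given. Its signal was 2.12, 2.31, 2.12 and 2.11 in control pools 1 to 4 and 1.97, 1.09, 2.63 and -2.54 in SDPP pools 1 to 4. The controls lay close together, SDPP pool 3 was above all of them, and pool 4 was below pool 3 by 5.17, or 35.9-fold. The signal in pool 4 was within 1 log2 unit of -2.96, the lowest well above background on that array. The control pools averaged 2.17 ± 0.10 and the SDPP pools 0.79 ± 2.31 (SD, n = 4), so the spread on SDPP was larger than the gap between the means.

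Next in size was Seabream_2006-01-03-CL437Contig1, with 3.21, 3.32, 3.38 and 3.30 in control pools 1 to 4 and 3.07, 2.24, 3.62 and -0.92 in SDPP pools 1 to 4. Its pools stood in the same order as those of Contig3138. The difference between pools 4 and 3 was -4.54, or 23.2-fold. The control pools averaged 3.30 ± 0.07 and the SDPP pools 2.003 ± 2.03 (SD, n = 4), again with tight controls and a wide SDPP group.

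The controls were about as tight as in other transcripts. The range over the 4 control pools had a median of 0.37, against 0.38 over all 5022 transcripts, and was under 0.5 in 69 of the 114 (60.5%) against 65.9%. It reached 1 in 19 of the 114 (16.7%) against 9.32% of the 5022, and 2 in 3. In the widest of these, control pool 3 stood at -3.73 and control pools 1, 2 and 4 at 3.00, 1.84 and 1.98, while SDPP pools 1 to 4 stood at 3.63, 3.01, 4.18 and 1.49. That transcript varied more on the control diet than on SDPP through control pool 3 alone. Its control pools 1, 2 and 4 lay closer together than its SDPP pools. The signal in control pool 3 was within 1 log2 unit of -4.42, the lowest well above background on that array. Control pool 1 was the lowest control in 62 of the 114, and control pool 2 the highest in 57. Wide controls make an overlap of the diets, part of the rule, more likely, which bears on the shares with wide ranges.

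The 7 transcripts higher in SDPP pool 4 also had their SDPP pools in the order 3, 1, 2, 4, here from low to high, in 7 of 7. Of the 549 others, 190 were higher in pool 4, and 86.8% of the 190 stood in that order. Their median signal was -0.25 in pool 3, 1.96 in pool 1, 2.71 in pool 2 and 3.33 in pool 4, and 1.47, 1.19, 1.60 and 1.74 in control pools 1 to 4. The difference between pools 4 and 3 ran from 2.003 to 6.65 with a median of 2.98, or 7.90-fold. Pool 4 was above all controls in 6 of the 7, against 83.2% of the 190 and 52.7% of the 5022, and pool 3 below all controls in 4, against 46.3% and 20.4%. The rule used both pools and the overlap of the diets, so nothing is read from these shares. In these 7 the controls varied too. Their range had a median of 1.40, was at least 1 in 4 of the 7 and at least 2 in 3.

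The clone cDN10P0001C15.F.ab1 had the widest gap of all members, and its function is not given. It stood at 0.12, -1.45, 3.17 and 1.83 in control pools 1 to 4 and at 4.27, 5.11, -0.90 and 5.74 in SDPP pools 1 to 4. SDPP pool 3 was within the control range and the other 3 SDPP pools were above it. Pools 4 and 3 differed by 6.65, or 100.1-fold, and the controls spanned 4.62. The signal in pool 3 was within 1 log2 unit of -1.68, the lowest well above background on that array. The control pools averaged 0.92 ± 2.01 and the SDPP pools 3.56 ± 3.03 (SD, n = 4), so both groups were spread widely.

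Next was cDN08P0005P12.F.ab1, with -0.11, 1.16, 1.29 and 0.99 in control pools 1 to 4 and 1.96, 2.71, -0.93 and 3.33 in SDPP pools 1 to 4. Pool 3 was below all controls and the other 3 SDPP pools above them. Here too the signal in pool 3 was within 1 log2 unit of the lowest well above background, -1.68. The difference of 4.26 between pools 4 and 3 was 19.2-fold, and group values were 0.83 ± 0.64 and 1.77 ± 1.88 (SD, n = 4). The other 5 of the 7 differed by 3.11, 2.98, 2.29, 2.25 and 2.003. The one at 2.25 had controls between 4.19 and 5.14 and SDPP pools 3 and 4 on either side of them. The one at 2.003 had the widest controls of the 5, from -0.97 in pool 2 to 2.62 in pool 1, which was above all 4 SDPP pools.

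**Figure D2:**
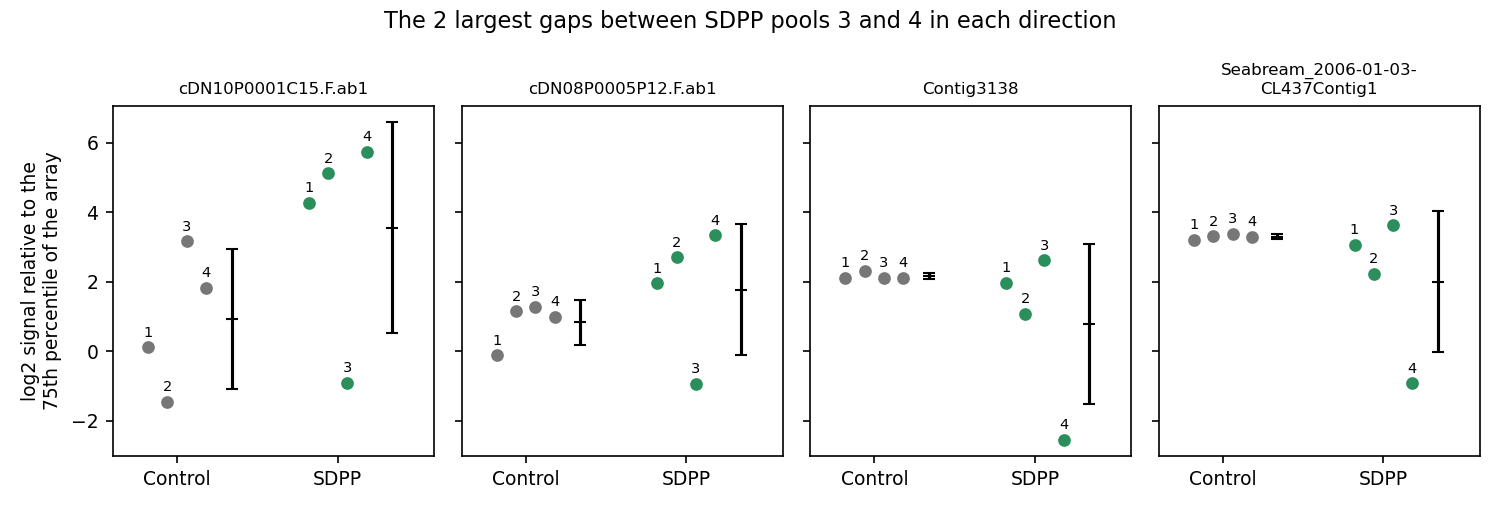
Log2 signal relative to the 75th percentile of the array (vertical axis) for the 2 transcripts with the largest gap between SDPP pools 3 and 4 in each direction. Each point is a pool with its number, and the bar is the mean ± SD of the 4 pools of a diet; the controls of Contig3138 lie between 2.11 and 2.31 while its SDPP pools lie between -2.54 and 2.63.

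Where the other pools lay between pools 3 and 4 was expressed as a place, 0 at pool 3 and 1 at pool 4, on the log2 scale. In the 114, SDPP pool 1 had a median place of 0.18 with quartiles of 0.15 and 0.21, and SDPP pool 2 of 0.45 with quartiles of 0.38 and 0.50. Pool 1 was nearer to pool 3, under 1/3 of the way, in 108 of the 114, and pool 2 was in the middle of the span in 101. With spike-in scaling these median places were 0.07 for pool 1 and 0.27 for pool 2, so they depend on the scaling. The control pools lay near pool 3, with median places of 0.17, 0.08, 0.12 and 0.13. In the 7, SDPP pools 1 and 2 had median places of 0.60 and 0.82, and the control pools 0.31, 0.51, 0.52 and 0.56.

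On the linear scale the places of pools 1 and 2 came to nearly the same values in both directions. Their medians were 0.341 for pool 1 and 0.671 for pool 2 in the 114, and 0.351 and 0.628 in the 7. In the 549 other transcripts they were 0.341 and 0.660. The medians of the members and of the other transcripts were thus close under this scaling. Linear places were not computed under any other scaling, and the log2 places of the 114 moved with spike-in scaling.

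Pools 1 and 2 were then set against weighted sums of pools 3 and 4 on the linear scale. The weights were fitted on those 549 other transcripts and applied to the 121 members. For pool 1 the weights were 0.656 of pool 3 and 0.329 of pool 4, and the measured signal departed from the sum by a median of 0.082 in size on the log2 scale, with 112 of the 121 within 0.25. For pool 2 they were 0.354 and 0.607, with a median departure of 0.089 and 103 of the 121 within 0.25. Among the 21 pairs of other pools that could be summed, pools 3 and 4 gave the smallest departure for pool 1 and for pool 2. Pools 2 and 3 came close for pool 1, at 0.085, and pools 1 and 4 for pool 2, at 0.096. The members and the 549 were both chosen by the gap between pools 3 and 4, which may favour that pair. The ranking is thus a description and nothing is read from it. Sums of SDPP pools 3 and 4, with weights fitted for each target, left departures of 0.314, 0.192, 0.256 and 0.211 for control pools 1 to 4. These sums cross the diets. The best pair of other control pools left 0.170, 0.175, 0.130 and 0.095, so control pool 4 came about as close as SDPP pools 1 and 2. The largest single departures from sums of SDPP pools 3 and 4 were 1.01 for SDPP pool 1 and 1.60 for SDPP pool 2.

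For cDN10P0001C15.F.ab1 the sum gave 4.17 for pool 1, measured at 4.27, and 5.03 for pool 2, measured at 5.11. For Contig3138 it gave 2.04 and 1.20, measured at 1.97 and 1.09. The SD between 2 copies of a probe on an array, a measure of how closely an array repeats itself, had medians of 0.052 to 0.105 on the SDPP arrays over the 71 or fewer of the 114 chosen probes with 2 usable copies. The largest were 1.82 in SDPP pool 1 and 1.65 in SDPP pool 2. This SD is another measure than the departures, over another set, so they are not compared. On the control side, pool 4 lay close to the plain average of control pools 1 to 3, at a median departure of 0.066 in size over the 114 and 0.040 over the 7. No such departure is given for the other control pools or for other transcripts, so this closeness has no baseline here. Whether pools share RNA is not given in the labels and was not tested. With pools 1 and 2 left out together, limma called 27 of 7029 transcripts higher on SDPP (0.384%) and 14 lower (0.199%). That is 41 in all against 1459 with every pool, and 0 of the 121 members. At an unadjusted p below 0.05 in that limma fit were 0 of the 121, against 1651 of the 7029. The SDPP pools kept were the 2 that the rule set at least 4-fold apart, which limits calls among the members. Fewer pools also give less precision, and no other pair was left out. Nothing on shared RNA is read from these counts.

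**Figure D3:**
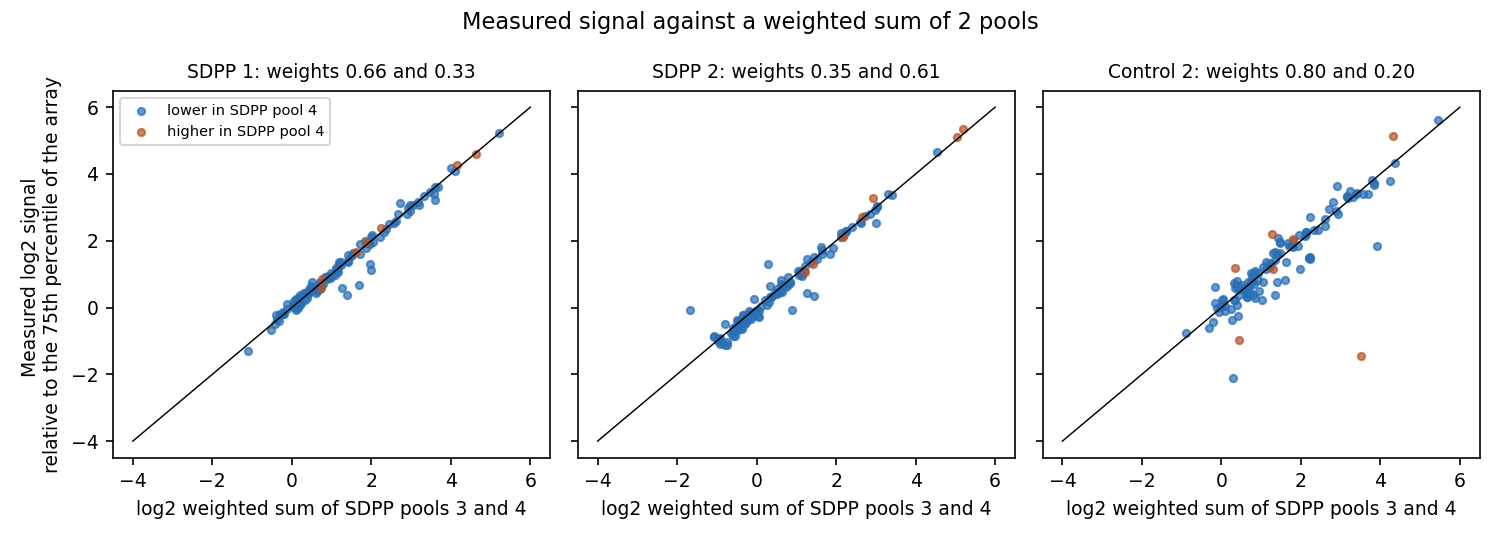
Measured log2 signal (vertical axis) against the log2 weighted sum of SDPP pools 3 and 4 (horizontal axis) for the 121 members in SDPP pool 1, SDPP pool 2 and, for comparison, control pool 2; the line marks equality. Median departures are 0.082, 0.089 and 0.192, and the titles give the weights of pools 3 and 4. The best pair of other control pools left 0.175 for control pool 2.

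Other probes of the same transcripts gave the same direction. These probes were not used in the choice but read the same RNA on the same arrays. Of the 114, 57 had 3 probes and 57 had 1. Well above background on all 8 arrays were 73 other probes of 41 transcripts, and 73 of 73 had pool 4 below pool 3, with 60 at 4-fold or more. Their median difference was -2.39, against -2.42 for the chosen probes of the same transcripts. The smallest was -0.07, so at least 1 transcript did not show the gap with all its probes. With median centring, 98.6% of the 73 agreed in sign with the chosen probe. Of the 7, 4 had other probes of this kind, and 7 of 7 such probes had pool 4 at least 4-fold above pool 3, with a median of 2.28. Over all 5022 transcripts 90.6% of such other probes agreed in sign with the chosen one, and over the 549 others that differed by at least 1 the share was 98.8%.

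Contig3138 had 1 other probe above background, at -5.20. Seabream_2006-01-03-CL437Contig1 had a pair of them, at -4.65 and -5.23. The 2 clones given for the other direction had none.

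**Figure D4:**
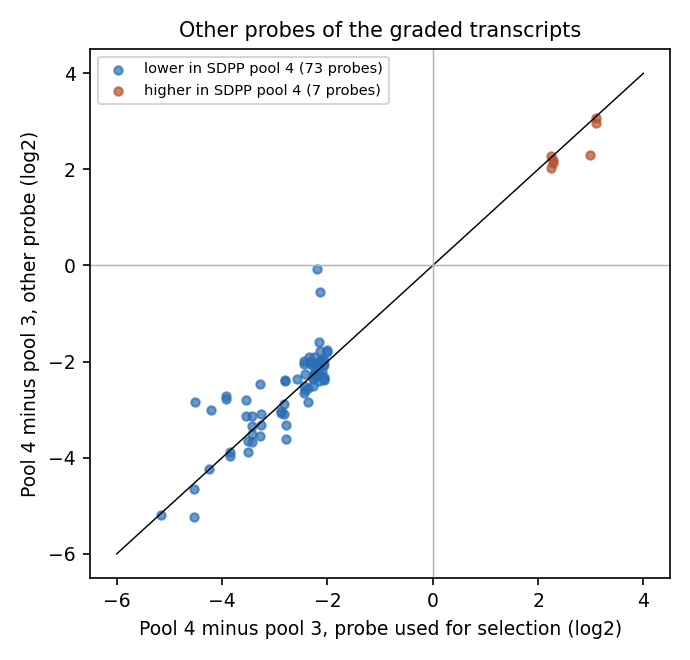
Difference between SDPP pools 4 and 3 in log2 units for other probes of the members (vertical axis) against the probe used in the choice (horizontal axis), with the line of equality. All 73 probes of transcripts lower in pool 4 lie below 0 and all 7 of those higher lie above it.

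The slides of pools 3 and 4 also carried control pools 1 and 2, so the same pair of slides could be compared on the control diet. In the 114, control pool 2 minus control pool 1 had a median of 0.23 with quartiles of 0.01 and 0.51, and it was above 0 in 86 and below 0 in 28. Over all 5022 its median was 0.07, and it was above 0 in 2923 and below 0 in 2099. The part of the slides in the difference between pools 4 and 3 was not tested. The size reached 1 in 14 of the 114 (12.3%) against 5.60% of the 5022. In the 7 the control difference ran from -3.59 to 1.27 with a median of 0.06.

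**Figure D5:**
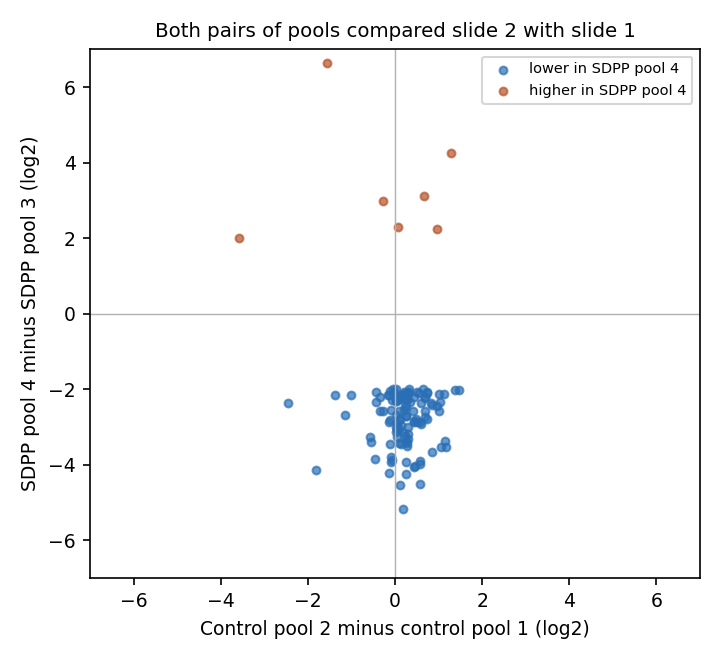
SDPP pool 4 minus SDPP pool 3 (vertical axis) against control pool 2 minus control pool 1 (horizontal axis), both in log2 units and both slide 2 minus slide 1, with 1 point per member. The points of the 114 transcripts lower in pool 4 are centred at 0.23 on the horizontal axis and at -2.59 on the vertical one.

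Other measures of the arrays were compared for the 114. In 4 equal bands of the array's rows lay 25.1%, 21.1%, 25.6% and 28.1% of their spots, against 23.4%, 26.5%, 26.3% and 23.7% over all 5022. In those of its columns the shares rose across the array, at 20.1%, 23.1%, 25.1% and 31.7%. Over all 5022 the column bands held 24.1%, 25.8%, 25.7% and 24.4%. Local background was 46.0 in pool 3 and 37.0 in pool 4 in the median, against 46.0 and 38.0 over all 5022. By mean signal over the 8 arrays, 21, 40, 32 and 21 of the 114 fell in 4 equal parts of the 5022 from dim to bright. Signal came within 1 log2 unit of the lowest signal well above background in 33 of the 114 in pool 4 and in 42 in pool 2, against 65 and 1193 of the 5022. For the 7 it did so in 3 in pool 3, against 520 of the 5022. The part of these measures in the differences was not tested. Contigs, sequences assembled from several reads by their names, made up 71 of the 114 (62.3%) and 58.0% of the 5022, and 2 of the 7. Several names may stand for 1 gene, and without sequences this could not be checked, so the members are not counted as separate genes.

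The comparison of the diets is given only for reference, since the overlap of the diets was part of the rule. Fitted over all 6755 transcripts tested, limma called 1459 at an adjusted p below 0.05 (21.6%), with 898 higher on SDPP (13.3%) and 561 lower (8.3%). Of the 5022 it called 21.3%, with 16.6% higher and 4.72% lower. The split moved with scaling: 61.5% of the calls were higher here, 42.3% with the percentile of probes detected on all arrays, 79.6% with median centring, 75.2% with spike-in scaling and 22.4% with the deposited values. It called 0 of the 121 members. At an unadjusted p below 0.05 were 4 of the 121, all 4 among the 114, against 2705 of the 6755. The overlap of the diets in the rule limits the counts of members, so nothing is read from them. The fitted difference, SDPP minus control, had a median of -0.75 over the 114 and 0.24 over the 7, against 0.14 over the 5022. The value depended on which pool was kept, in the direction that the rule fixed by setting pools 3 and 4 at least 4-fold apart. Without SDPP pool 4 the medians were -0.21 and -0.17, and without SDPP pool 3 they were -1.08 and 0.83. Without pool 3, limma called 13 of the 114 lower and 3 of the 7 higher, where it called 13.2% of all tested transcripts lower and 17.4% higher. Without pool 4 it called 0 of the 121, where it called 9.38% of all tested transcripts higher and 6.67% lower. At an unadjusted p below 0.05 in that fit were 9 of the 121, against 2430 of the 6760 tested.

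Direction was not uniform in the group. The SDPP mean was above the control mean in 7 of the 114 and in 5 of the 7, against 3210 of the 5022. The rule set pools 3 and 4 at least 4-fold apart, which may move the SDPP mean, so nothing is read from these counts. Among those 7 of the 114, the difference of the means ran from 0.08 to 2.31, and the largest came from the transcript with control pool 3 at -3.73. Pool 4 was not below all controls in 4 of the 114, and the controls of these 4 spanned at least 1.91.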

How the data were processed

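Total RNA of 8 gut pools was labelled with Cy3 and hybridised to 1-colour arrays, 1 array per pool, per the labels' protocols. Scanner files from Agilent Feature Extraction (version 10.7.3.1 in the file headers) were deposited, and the processed signal taken from them is a linear intensity with background removed. The values deposited beside them, which served as an alternative, are log2 background-subtracted signals with no scaling between arrays, as found by setting both side by side. Its column medians were 10.3, 10.0, 9.59 and 10.3 for control pools 1 to 4 and 9.81, 10.3, 10.2 and 9.53 for SDPP pools 1 to 4.

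Log2 processed signals of the 43803 non-control spots were set relative to the array's 75th percentile. Spots marked as outliers were dropped, and copies of a probe averaged. The probe with the highest mean over the 8 arrays stood for each of the 15156 sequence names. Detection of a probe required that the software called 50% or more of its spots well above background. Members followed the rule in the opening, and the members and lists were chosen with earlier results of these data known. In each direction, the 2 members with the largest gap between SDPP pools 3 and 4 were named. Gene lists fixed by name could not be applied.

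Diets were compared in R 4.3.3 with a two-sided limma fit (version 3.58.1, eBayes) and Benjamini-Hochberg adjustment over transcripts well above background on all 4 arrays of at least 1 diet, after a test on simulated data. Pool numbers are shared by both diets, but deviations of pools with the same number correlated at -0.02, -0.08, -0.05 and 0.06 over 5022 transcripts, so no block was used. Weights of pool sums were fitted by least squares on the log2 scale with scipy 1.17.1. The number of arrays limits the precision.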

Additional observations from a re-analysis of the deposited data

Results flagged for a closer look

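A search for single pools far from the rest of their diet covered 22 groups of 4 values and found 1. In unselected values chance alone gives about 1 in 20. These values were chosen by the gap between SDPP pools 3 and 4 and by the overlap of the diets, and the groups share arrays. That rate thus does not apply to them, and nothing is read from the count. The groups were the medians of the 7 and of the 114, each of the 7, and the 2 named of the 114, by diet. The rest of the 114 were not searched. In Contig3138, control pool 2 was at 2.31 and the other 3 control pools lay between 2.11 and 2.12, a gap of 0.955 of the whole control range. That range was only 0.20 on the log2 scale.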

How the results depend on the processing

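The number of transcripts higher in SDPP pool 4 was 12 with median centring, 49 with spike-in scaling, 175 and 3 at a threshold of 1 and 3, and 69 where only the higher of pools 3 and 4 had to be well above background. The number lower was 75 with normexp, and 61, 394, 37 and 315 in the last 4 of those settings, in the same order. Leaving out 1 pool other than pools 3 and 4, which the rule needs, gave 7 to 8 higher and 111 to 150 lower. Spike-in scaling, the filter on the higher pool and leaving out SDPP pools 1 and 2 together were chosen after seeing the data.

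Calls by diet, 1459 over all transcripts, were 3857 with array weights, 961 with the deposited values, 269 with no filter, 811 with normexp, 0 with slide as a fixed block (435 at an unadjusted p below 0.05 in limma), 41 without SDPP pools 1 and 2 and 496 to 2113 on leaving out 1 pool. With pool number as a replicate block they were 791. Only slides 1 and 2 carried both diets. With slide as a fixed block the diet difference thus came from those slides alone, and nothing is read from its 0 calls. Members called, 0 of 121, were 23 with array weights, 1 with the median of a name's probes and 0 to 16 on leaving out 1 pool, the 16 without SDPP pool 3. Over all transcripts tested, those 3 settings called 3857 of 6755, 1534 of 6755 and 2113 of 6901. The overlap of the diets in the rule limits the counts of members, so nothing is read from them. On leaving out 1 pool, calls over all transcripts moved by over 1.5 times without SDPP pool 1 (773), SDPP pool 2 (599), control pool 1 (698), control pool 3 (640) and control pool 4 (496). Over all tested transcripts the median diet difference was 0.04, and it was -0.09 with the percentile over probes above background on all arrays, 0.26 with median centring, 0.33 with spike-in scaling and -0.20 with the deposited values. Apart from changes in the number of transcripts or pools, the cause was not tested. The median difference between control pools 2 and 1 was 0.60 over the 114 and 0.43 over the 7 with spike-in scaling, and 0.40 over the 114 with the deposited values. The gaps and diet differences of the 4 named transcripts and the medians of the pool differences and places changed sign in no setting run on them. The median diet difference of the 7 did, from 0.24 to -0.17 without SDPP pool 4, a shift whose direction the rule fixed.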
